A study of Mus musculus with 20 samples.

Results

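The genes described here are 10 germ cell and piRNA genes, read in mouse embryonic stem cells with and without thymine DNA glycosylase (TDG), the enzyme that cuts oxidised methylcytosines out of DNA. They were taken by symbol, Dazl, Ddx4, Mael, Asz1, Mov10l1, Tdrkh, Piwil2, Tdrd1, Tex19.1 and Brdt, and all 10 were found among the 46939 genes of the deposited expression table. The groups were TDG KO cells, in which Tdg was knocked out, and WT control cells. Both had a 129 strain background and grew in medium with serum and LIF on mitotically arrested mouse embryonic fibroblasts, which were then removed by repeated plating, per the labels' protocols. Poly(A) RNA was sequenced in 2 libraries of each genotype, and DNA bound by the insulator protein CTCF was sequenced after immunoprecipitation in 2 libraries of each genotype. Whether the replicates are separate cultures is not in the labels; the p-values below then cover no more than the spread among the libraries, possibly technical. Genotype and cell line cannot be told apart if each genotype is 1 line.

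The piRNA pathway guards the germ line against transposons. PIWI proteins carry small guide RNAs, the piRNAs, which are made from long precursors by helicases and nucleases that Tudor-domain scaffolds gather at mitochondria and in germ granules. Many of its genes, like other germ cell genes, have CpG-rich promoters that are methylated in somatic tissues and repressed by factors that bind E-boxes and E2F sites, and embryonic stem cells transcribe a part of them at low levels. DNA methylation was not measured in the data used here, and silencing does not describe the WT cells: 7 of the 10 genes lay above 1 FPKM (fragments per kilobase of transcript, scaled to the mapped fragments) in both WT libraries, and 9 of 10 in both TDG KO libraries. They are therefore called by their function.

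In the authors' files the loci (mm10) were Dazl at chr17:50279394-50293599, Ddx4 at chr13:112598333-112652310, Mael at chr1:166201201-166238747, Asz1 at chr6:18050964-18109061, Mov10l1 at chr15:88982909-89055152, Tdrkh at chr3:94413273-94451130, Piwil2 at chr14:70372480-70429094, Tdrd1 at chr19:56826209-56870012, Tex19.1 at chr11:121146143-121148319 and Brdt at chr5:107331159-107387058. The promoter table from RefSeq was matched for 9 of the 10 genes, Piwil2 being the other, and the first window of each gene, 300 bases around the start site (250 before the start, 50 after it, GRCm38.p6), held 16 to 38 CpG dinucleotides, against a median of 7 over the 32851 windows of the table. At least 16 CpG were found in 33% of all windows. The 4 windows below belong to the genes with the largest increase (Dazl) and the largest decrease (Ddx4) on the log2(FPKM + 1) scale used below, the lowest WT level (Asz1) and the highest level (Tex19.1); each runs 5′ to 3′ along its gene with every CpG in capitals. Dazl lies at chr17:50293571-50293870 on the minus strand, Ddx4 at chr13:112652261-112652560 on the minus strand, Asz1 at chr6:18109012-18109311 on the minus strand and Tex19.1 at chr11:121145893-121146192 on the plus strand.
Dazl: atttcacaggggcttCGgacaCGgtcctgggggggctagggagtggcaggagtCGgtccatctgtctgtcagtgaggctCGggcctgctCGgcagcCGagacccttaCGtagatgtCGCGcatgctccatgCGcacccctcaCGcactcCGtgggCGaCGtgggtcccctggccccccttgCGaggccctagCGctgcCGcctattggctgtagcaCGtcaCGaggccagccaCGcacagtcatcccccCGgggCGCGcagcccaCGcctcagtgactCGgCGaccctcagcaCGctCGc
Ddx4: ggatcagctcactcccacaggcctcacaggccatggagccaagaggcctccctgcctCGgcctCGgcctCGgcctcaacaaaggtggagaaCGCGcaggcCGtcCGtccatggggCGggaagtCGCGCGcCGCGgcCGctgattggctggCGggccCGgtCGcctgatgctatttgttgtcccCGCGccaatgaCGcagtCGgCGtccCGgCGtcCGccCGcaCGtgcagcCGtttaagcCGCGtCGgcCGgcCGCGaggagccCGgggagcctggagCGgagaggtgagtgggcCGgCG
Asz1: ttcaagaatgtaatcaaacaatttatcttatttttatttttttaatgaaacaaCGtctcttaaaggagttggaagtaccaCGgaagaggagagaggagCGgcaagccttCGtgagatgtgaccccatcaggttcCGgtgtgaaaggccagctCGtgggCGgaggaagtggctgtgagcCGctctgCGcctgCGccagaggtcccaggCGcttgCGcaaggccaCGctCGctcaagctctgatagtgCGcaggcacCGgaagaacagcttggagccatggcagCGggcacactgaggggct
Tex19.1: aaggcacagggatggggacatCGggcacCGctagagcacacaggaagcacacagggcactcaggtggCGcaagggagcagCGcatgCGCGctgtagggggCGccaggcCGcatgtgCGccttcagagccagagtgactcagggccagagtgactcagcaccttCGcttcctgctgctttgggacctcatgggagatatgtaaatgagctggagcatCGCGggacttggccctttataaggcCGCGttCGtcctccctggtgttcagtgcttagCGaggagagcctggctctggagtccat
The Ddx4 window had the most CpG, 38, followed by Dazl with 28, Tdrkh with 25, Mael with 24 and Brdt with 23. Mov10l1 had 20, Tdrd1 had 20, 25 and 3 in its 3 windows, Asz1 had 17 and Tex19.1 had the fewest, 16. The gene that fell most (Ddx4) thus had the most CpG, and genes that rose had both few (Tex19.1, Asz1) and many (Dazl). The E-box CACGTG, searched on both strands, occurred in 5 of the 9 first windows (Ddx4, Mael, Mov10l1, Tdrd1 and Brdt), in 7.15% of all windows and in 11.4% of those with at least 16 CpG. The E2F motif GCGGGAA occurred in Ddx4 alone, against 4.60% and 10.6% of these windows. A part of the CTCF core motif, AGGNGGC, occurred in 5 of the 9 windows (Dazl, Mael, Tdrkh, Tdrd1 and Tex19.1), against 29.4% and 47.3%. The E-box windows held both genes that fell (Ddx4, Mov10l1) and genes that rose (Mael, Brdt).

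The targeted gene followed the labels. Tdg had 5.50 and 4.74 FPKM in TDG KO cells, against 28.1 and 30.4 FPKM in WT cells. Its log2 change was -2.31 (SE 0.0866, limma, adjusted p = 9.21e-06). Changes here and below are differences of log2(FPKM + 1), TDG KO minus WT, tested with limma and Benjamini-Hochberg adjustment at 0.05 over the 12035 genes with a mean of at least 1 FPKM. All 8 stem cell markers were above this level. Markers of fibroblasts differed between genotypes and between the WT libraries: 20 such genes summed to 413 and 448 FPKM in TDG KO cells, against 695 and 494 FPKM in WT cells. WT replicate 1 exceeded WT replicate 2 in all 20, whereas all 10 germ cell and piRNA genes were lower in WT replicate 1. In other lists, most described below, WT replicate 1 was the higher in 1 of 8 stem cell markers and 2 of 20 other germline genes. It was so in 9 of 23 other piRNA pathway genes and 11 of 21 regulators of germline promoters. The share over all genes was not counted. The part of fibroblast RNA in the changes below was not tested. In bulk RNA, fewer cells of a type and less RNA per cell cannot be told apart.

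Of the 10 genes 6 were higher in TDG KO cells: Dazl, Asz1, Tex19.1, Brdt, Tdrkh and Mael; Ddx4 and Mov10l1 were lower. Piwil2 did not pass the test, and Tdrd1 was under the filter on low values. Over all tested genes 54.0% were called, 24.4% as higher and 29.5% as lower. Log2 changes of at least 1 with a call were found in 4 of the 9 tested genes, against 3.61% of all tested genes, and called changes of -1 or lower in none of the 9, against 1.30%. Among these 4, both Asz1 and Brdt passed the filter only through their TDG KO libraries, so a difference was built into their being tested. Libraries of the genotypes did not overlap for any of the 10 genes, as for 78.8% of the tested genes. The median change of the 9 tested genes, Asz1 and Brdt included and Tdrd1 left out, was 0.94, against -0.04 over all tested genes. This median was thus in part built by the filter. The 10 genes were also chosen with earlier results of these data known, so the median is not independent evidence. Summed over the 10 genes, FPKM was 292 and 309 in TDG KO cells, against 129 and 139 in WT cells. Most of each sum was Tex19.1 alone, with 205 and 223 FPKM in TDG KO cells and 73.2 and 78.5 FPKM in WT cells.

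**Figure D1:**
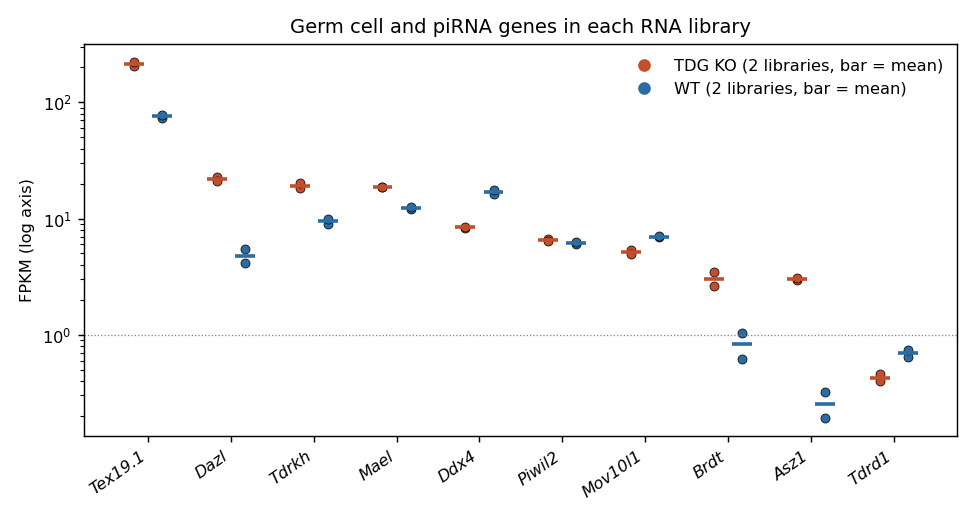
FPKM (log axis) of the 10 germ cell and piRNA genes in each RNA library, TDG KO left of WT, 1 point per library. Dazl lies at 21.0 and 22.7 in TDG KO cells and at 4.14 and 5.44 in WT cells, while Piwil2 lies between 6.07 and 6.72 in all 4 libraries.

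Dazl and Ddx4, whose products bind RNA and mark germ cells, moved in opposite directions. Dazl encodes an RNA-binding protein that controls translation in germ cells and marks their commitment. Dazl had 22.7 and 21.0 FPKM in TDG KO cells, against 4.14 and 5.44 FPKM in WT cells. Both TDG KO libraries lay far above both WT libraries. Dazl rose by 1.99 on the log2 scale (SE 0.114, limma, adjusted p = 4.37e-05), and 94 of the 12035 tested genes, Dazl included, reached this change. Ddx4, the mouse Vasa gene, encodes a DEAD-box RNA helicase of germ granules. Ddx4 had 8.36 and 8.52 FPKM in TDG KO cells, against 16.3 and 17.6 FPKM in WT cells. The TDG KO libraries were the low ones here and the groups did not overlap. Its log2 change was -0.93 (SE 0.0712, limma, adjusted p = 0.000138), and 246 tested genes fell at least as far.

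Piwil2, Mov10l1 and Tdrkh act on the piRNAs themselves, and each gave a different call. Piwil2 encodes MILI, a PIWI protein that binds and cuts RNA with piRNAs as guides. Piwil2 had 6.72 and 6.46 FPKM in TDG KO cells, against 6.07 and 6.29 FPKM in WT cells. The TDG KO libraries were the higher ones by a small margin, and its log2 difference of 0.08 (SE 0.0753, limma, adjusted p = 0.398) did not pass the test. Mov10l1 encodes the RNA helicase that feeds piRNA precursors into processing. Mov10l1 had 5.34 and 4.96 FPKM in TDG KO cells, against 6.95 and 7.03 FPKM in WT cells. The TDG KO libraries were lower without overlap, and its log2 change was -0.38 (SE 0.0778, limma, adjusted p = 0.00655). This was the weakest call: in the authors' deposited table its q-value was 0.0614, not significant. Tdrkh encodes a mitochondrial Tudor protein that holds PIWI proteins while the ends of piRNAs are trimmed. Tdrkh had 18.2 and 20.1 FPKM in TDG KO cells, against 9.03 and 9.94 FPKM in WT cells. Both TDG KO libraries were higher, and Tdrkh rose by 0.94 on the log2 scale (SE 0.0807, limma, adjusted p = 0.000207). The authors' locus for Tdrkh, chr3:94413273-94451130, runs past the end of the RefSeq gene at 94434854. It reaches Mrpl9, which begins 8300 bp beyond that end, while Oaz3 overlaps the RefSeq gene of Tdrkh itself. Oaz3 lay between 0 and 0.691 FPKM in the 4 libraries, and Mrpl9 was not called (log2 difference -0.04, limma, adjusted p = 0.674).

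Asz1, Mael and Tdrd1 encode scaffolds and other germ granule proteins. Asz1 (GASZ) anchors germ granules at mitochondria. Asz1 had 2.95 and 3.08 FPKM in TDG KO cells, against 0.190 and 0.319 FPKM in WT cells. It was near the floor in both WT libraries and clearly present in both TDG KO libraries. Asz1 rose by 1.68 on the log2 scale (SE 0.109, limma, adjusted p = 7.34e-05). This scale understates low genes: the means differed 11.8-fold, and with a pseudocount of 0.1 the log2 change was 3.16, larger than the 2.18 of Dazl under the same pseudocount. Mael encodes maelstrom, which acts in the silencing of transposons by piRNAs. Mael had 18.57 and 18.60 FPKM in TDG KO cells, against 12.2 and 12.5 FPKM in WT cells. The replicates lay close together and the genotypes apart, and Mael rose by 0.56 (SE 0.0633, limma, adjusted p = 0.000616), a size that 1329 tested genes reached. Tdrd1 encodes a Tudor scaffold that binds MILI. Tdrd1 had 0.398 and 0.458 FPKM in TDG KO cells, against 0.645 and 0.734 FPKM in WT cells. All 4 libraries were under 1 FPKM, with TDG KO the lower. Without a filter on low values its log2 difference was -0.24 (limma, adjusted p = 0.0547), whereas the authors' deposited table gave -0.69 with a q-value of 0.0177, called significant.

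Tex19.1 and Brdt act on retrotransposons and on chromatin. Tex19.1 encodes a protein that restrains retrotransposons in germ cells and placenta and is also made in pluripotent cells. Tex19.1 had 205 and 223 FPKM in TDG KO cells, against 73.2 and 78.5 FPKM in WT cells. It was the highest of the 10 genes in every library, with both TDG KO libraries above both WT libraries. Tex19.1 rose by 1.48 on the log2 scale (SE 0.0712, limma, adjusted p = 2.22e-05). Brdt encodes a testis bromodomain protein that reads acetylated histones. Brdt had 3.45 and 2.60 FPKM in TDG KO cells, against 0.617 and 1.03 FPKM in WT cells. The replicates of each genotype lay apart, but the genotypes did not overlap. Brdt rose by 1.14 (SE 0.155, limma, adjusted p = 0.00124), and by 1.78 with a pseudocount of 0.1.

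**Figure D2:**
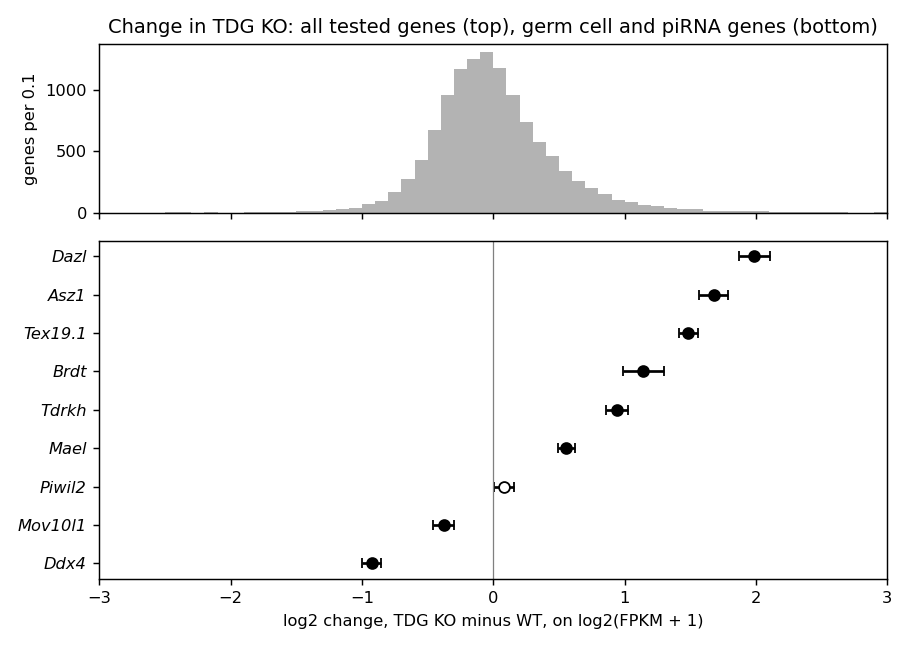
Log2 change, TDG KO minus WT, of log2(FPKM + 1): the upper panel is a histogram of the tested genes, shown from -3 to 3, and the lower panel gives the germ cell and piRNA genes with bars of 1 SE (limma). Dazl at 1.99 and Asz1 at 1.68 lie farthest to the right and Ddx4 at -0.93 farthest to the left, with Piwil2 at 0.08 next to the middle.

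In the authors' deposited table, which rests on their own test of the same libraries, 8 of the 10 genes were significant, 6 higher and 2 lower in TDG KO cells, where 27.4% of 16262 genes were. Its 2 lower genes were Ddx4 and Tdrd1, while the 2 called lower here were Ddx4 and Mov10l1. Its log2 fold of Asz1, without a pseudocount, was 3.56 in favour of TDG KO.

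The order of the 10 genes by level differed between the genotypes: Tex19.1, Piwil2 and Brdt kept their place and the others did not. In TDG KO cells the order from high to low was Tex19.1, Dazl, Tdrkh, Mael, Ddx4, Piwil2, Mov10l1, Brdt, Asz1 and Tdrd1, and in WT cells it was Tex19.1, Ddx4, Mael, Tdrkh, Mov10l1, Piwil2, Dazl, Brdt, Tdrd1 and Asz1. FPKM is per length, so the order is one of levels. Neighbours in this order whose libraries overlapped were Tdrkh with Mael and Brdt with Asz1 in TDG KO cells, and Brdt with Tdrd1 in WT cells. Dazl stood in place 2 in TDG KO cells and in place 7 in WT cells. Ddx4 stood in place 5 in TDG KO cells and in place 2 in WT cells.

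The genes most like Dazl over the 4 libraries, by Euclidean distance of log2(FPKM + 1), were Pkp2 at 0.15, Scml2 at 0.25, Nnat at 0.42, Cldn6 at 0.61 and Irak2 at 0.69. Pkp2, which encodes the desmosome protein plakophilin, had 22.7 and 23.1 FPKM in TDG KO cells, against 4.33 and 5.16 FPKM in WT cells. Dazl was the gene the list was built around, so this likeness is a description only.

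Other genes of the piRNA pathway were called in both directions. Of 23 such genes 15 were tested, 8 rose, 4 fell and 3 were not called, with a median change of 0.28. The shares over all tested genes were 24.4% higher and 29.5% lower. Of the 8 that rose 2, Piwil4 and Tdrd5, passed the filter only through their TDG KO libraries, so their rise was in part built in. Fkbp6, a co-chaperone of piRNA loading, had 17.9 and 20.7 FPKM in TDG KO cells, against 2.83 and 3.30 FPKM in WT cells, a log2 change of 2.32. Gtsf1, a zinc-finger partner of PIWI proteins, had 11.8 and 13.1 FPKM in TDG KO cells, against 1.68 and 1.79 FPKM in WT cells, a log2 change of 2.29. In both genes the TDG KO libraries stood far above the WT ones. Gpat2, a mitochondrial protein that binds MILI, rose by 1.55, and Tdrd12, a Tudor helicase, by 1.49. The 4 that fell, named after their values were seen, were Pnldc1, the exonuclease that trims piRNAs (-0.55), Prmt5, the methyltransferase that marks PIWI proteins for Tudor binding (-0.50), Rnf17 (-0.47) and Wdr77, the partner of Prmt5 (-0.18). Prmt5 and Wdr77 also serve splicing in every cell type.

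Other germline genes whose promoters are methylated in somatic cells were also examined. Of 20 genes 18 were tested, 13 rose, 3 fell and 2 were not called, with a median change of 0.83. Over all tested genes 24.4% were called higher and 29.5% lower. Of the 13 that rose 3, Tex19.2, Tuba3b and Tex101, passed the filter only through their TDG KO libraries. Several of them were known to rise from earlier results of these data, so the count is not independent evidence. Rhox5, an X-linked homeobox gene of the reproductive tract, had 513 and 541 FPKM in TDG KO cells, against 23.1 and 27.6 FPKM in WT cells, a log2 change of 4.33. Pnma5 rose by 3.94, Tuba3a, a testis tubulin, by 3.91 and Stra8, which opens the way to meiosis, by 2.84. Each of these 4 changes was larger than that of Dazl. The 3 that fell, named after their values were seen, were Sycp3 (-1.12), Hormad1 (-0.50) and Tex11 (-0.47). Sycp3 had 56.6 and 54.7 FPKM in TDG KO cells, against 112 and 132 FPKM in WT cells.

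In a list of genes linked to primordial germ cells, the embryonic founders of the germ line, Dppa3 had the largest change. Of 9 genes 8 were tested, 5 rose, 1 fell and 2 were not called, with a median of 0.34, where 24.4% of all tested genes were called higher and 29.5% lower. Without TDG KO replicate 1, or without WT replicate 1, only 3 rose, and the call of a decrease was lost with any 1 library left out (0 fell). Dppa3 (Stella), a maternal factor that protects DNA from demethylation, had 57.8 and 61.9 FPKM in TDG KO cells, against 1.83 and 1.67 FPKM in WT cells, a log2 change of 4.47. Tfap2c rose by 0.86, Utf1 by 0.67, Nanos3 by 0.39 and Kit by 0.30. Prdm14 was the gene that fell (-0.24), and Prdm1 (-0.11) and Dnd1 (-0.10) were not called. Markers of spermatids were nearly absent: none of 10 spermatid genes was tested, the highest value in any library was 0.166 FPKM, and 2 were at 0 in all 4 libraries. Of 9 oocyte genes 2 were tested, and Zp3 rose by 0.94 while Ooep, which embryonic stem cells also express, fell by 0.68.

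The list of regulators of germline promoters held the DNA methyltransferases, the repressors that bind E-boxes and E2F sites and the demethylation genes Tet1, Tet2 and Tdg; of its 21 genes, all tested, 4 rose, 11 fell and 6 were not called, with a median of -0.29, beside the 24.4% higher and 29.5% lower over all tested genes. Tdg, the gene knocked out, was among the 11 that fell, so its fall was fixed by the design. Dnmt3a and Dnmt3b, the enzymes that set new DNA methylation, rose by 1.44 and 1.05. Dnmt3l (1.02) and Pcgf6 (0.20) also rose. Dnmt1 fell (-0.29), as did Mga (-0.76), Cbx3 (-0.75) and Setdb1 (-0.53), and Uhrf1 was not called (-0.16). Tet2, which oxidises methylcytosine, had 10.4 and 7.72 FPKM in TDG KO cells, against 29.3 and 26.3 FPKM in WT cells, a log2 change of -1.53. Of the 8 stem cell markers 1 rose, 4 fell and 3 were not called, with a median of -0.35, beside the same shares. The 4 that fell were Klf4 (-0.75), Pou5f1 (-0.56), Dppa5a (-0.56) and Esrrb (-0.52), and Nanog rose by 0.31. Of the 20 fibroblast markers 12 fell, 1 rose and 7 were not called, with a median of -0.61, and 1 of the 12 passed the filter only through its WT libraries; 4 fell when TDG KO replicate 1 was left out, 3 when TDG KO replicate 2 was, and 4 with no filter on low values. Col3a1 (-1.23), Dcn (-1.19), S100a4 (-1.09) and Col6a3 (-0.92) fell furthest among those called. Tagln was the marker that rose, by 0.85. The shares over all tested genes were again 24.4% higher and 29.5% lower.

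**Figure D3:**
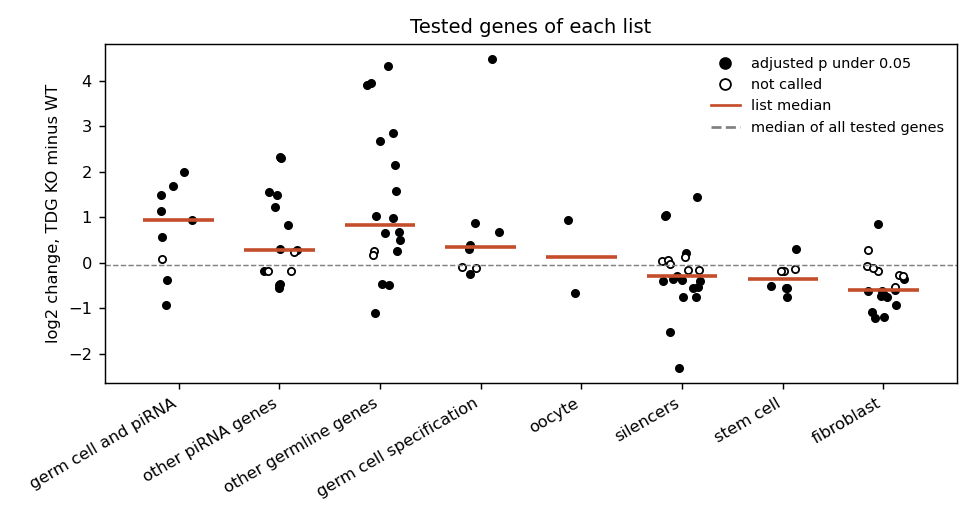
Log2 change, TDG KO minus WT, of every tested gene of each list, 1 point per gene, with the median of the list marked. The medians are 0.94 for the germ cell and piRNA genes, 0.83 for the other germline genes, 0.28 for the other piRNA pathway genes and -0.61 for the fibroblast markers. All of these but the last include genes that passed the filter only through their TDG KO libraries.

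Few tested genes around Dazl, Asz1, Ddx4 and Mael moved as far as these did. Within 5 Mb of Dazl 68 genes were tested, with a median change of -0.04, and none reached the change of Dazl. Within 5 Mb of Asz1 13 genes were tested, with a median of -0.20, and again none reached its change. Within 5 Mb of Ddx4 1 of 25 tested genes fell as far or further. The counts were 1 of 45 for Mael, 3 of 106 for Tdrkh, 3 of 64 for Brdt, 8 of 53 for Mov10l1 and 23 of 56 for Piwil2. Genes the authors marked as not reliably estimated were left out, 2 in these windows.

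Tex19.1 stood on a chromosome that was higher in TDG KO cells as a whole. On chromosome 11 the median change of 971 tested genes was 0.37, and 66.2% were called higher. Within 5 Mb of Tex19.1 the median of 91 tested genes was 0.36, and 65.9% were called higher. Of the 91 genes 1 reached the change of 1.48 of Tex19.1, its relative Tex19.2. Tex19.2 had 4.52 and 4.55 FPKM in TDG KO cells, against 0.784 and 0.958 FPKM in WT cells, a log2 change of 1.57 (limma, adjusted p = 6.35e-05). It passed the filter only through its TDG KO libraries, so a difference was built into its being tested. Tex19.2 lies 27466 bp from Tex19.1 and is a close relative, so reads may be shared between them. The part of the chromosome-wide shift in the change of Tex19.1 was not tested.

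Among the nearest tested genes on either side, Them5 next to Tdrkh rose by 1.06 (limma, adjusted p = 0.000335), having passed the filter only through its TDG KO libraries, and Ogfod3 next to Tex19.1 by 0.56 (adjusted p = 0.00617, limma). Both neighbours of Brdt fell, Tgfbr3 by 0.39 and Glmn by 0.56 on the log2 scale, while Brdt rose. Both neighbours of Tdrd1, Ccdc186 (-0.37) and Ablim1 (-1.07), fell, and so did Pim3 (-0.43) next to Mov10l1. The neighbours of Dazl, Rftn1 and Plcl2, were not called, nor were those of Ddx4 (Il6st and Slc38a9), Mael (Gpa33 and Tada1), Asz1 (St7 and Lsm8) and Piwil2 (Slc39a14 and Polr3d). Trabd and Mrpl9, the other neighbours of Mov10l1 and Tdrkh, were not called either.

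**Figure D4:**
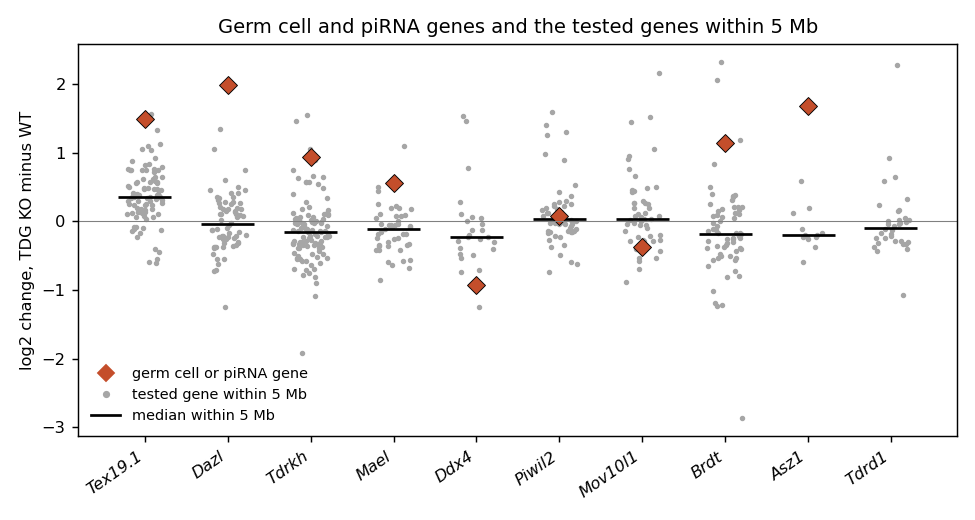
Log2 change, TDG KO minus WT, of the tested genes within 5 Mb of each germ cell and piRNA gene (points), with the gene itself as a diamond where it was tested. Dazl (1.99) and Asz1 (1.68) lie above every point around them, and the points around Tex19.1 are centred at 0.36.

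CTCF peaks, called by the authors in each library apart, were counted within 20 kb of the 10 loci. There were 20 and 15 peaks in TDG KO cells, against 10 and 12 in WT cells. Tex19.1 alone held 7 and 2 of these peaks in TDG KO cells, and 2 and 2 in WT cells. The mean of the TDG KO lists was 1.59 times that of the WT lists near these genes and 1.29 times over the whole lists, which held 48514 and 48833 peaks in TDG KO cells and 38303 and 37099 in WT cells. Merged by an overlap of 1 bp, the peaks formed 23 regions. Of these 8 were in all 4 lists, as were 59.8% of all 54729 regions, 1 was TDG KO-only (both TDG KO lists, no WT list), as were 10.8% of all regions, and 7 were in TDG KO replicate 1 alone, as were 6.44% of all. No region was in both WT lists without a TDG KO list. Of the 10 loci 1 had a TDG KO-only region, against 30.1% of the loci of tested genes. With a list left out, the class rested on the remaining lists, so the count of TDG KO-only regions could only stay or rise. It was 3 without TDG KO replicate 1, 8 without TDG KO replicate 2, 2 without WT replicate 1 and 3 without WT replicate 2. The excess in TDG KO cells did not hold with the 37099 strongest peaks of each list, the length of the shortest. The mean near these genes was then 9 in TDG KO lists and 11 in WT lists. This cut takes more peaks from the longer TDG KO lists, so a loss was in part built in.

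Tex19.1 had the most peaks, 7 and 2 in TDG KO cells, against 2 and 2 in WT cells. Of its 7 regions 5 came from TDG KO replicate 1 alone, which sets this replicate apart from the other 3 lists. The region at chr11:121145860-121146067 lay over the first 175 bases of the promoter window printed above, with 10 of its 16 CpG. Its score, which as for all peaks is the authors' own, stood at percentile 30.4 of the list. Tex19.1 also had regions in all 4 lists. The nearer one was centred 2255 bp past its start, with score percentiles of 80.6 and 75.5 in TDG KO lists and 30.7 and 40.9 in WT lists. The other, at -19646 bp from the start, had percentiles of 86.8 and 76.8 in TDG KO lists and 47.1 and 61.1 in WT lists. Both regions ranked higher in both TDG KO lists, although ranks in lists of different length do not show a change in binding. Within 1 Mb of Tex19.1 there were 108 and 81 peaks in TDG KO cells and 51 and 53 in WT cells, a ratio of means of 1.82, the highest of the 10 genes, and chromosome 11 is also where RNA was higher as a whole.

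Dazl had a region 625 bp inside the gene from its start, at chr17:50292796-50293195, in 3 of the 4 lists. Its score percentiles were 35.7 and 50.7 in TDG KO lists, against 46.6 in the list of WT replicate 1. The region was thus listed in both genotypes, and the promoter window of Dazl itself held no peak. Mael had a region 1191 bp inside the gene in TDG KO replicate 2 alone, at percentile 10.7, and a further one 24396 bp past its start in TDG KO replicate 2 and both WT lists. Dazl, Mael and Tex19.1 were the 3 of 9 genes with a region within 2 kb of the start, against 27.1% of the 9056 start sites of tested genes.

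The TDG KO-only region lay inside Brdt near its far end, at chr5:107386467-107386825, 55452 bp from the start, with score percentiles of 1.17 and 19.8. It was thus a low-ranked peak in both lists. Brdt also had a region in all 4 lists, at -10288 bp from its start, and 1 in TDG KO replicate 1 alone. Asz1 had no region near its start and 2 inside the gene, 1 in both TDG KO lists and WT replicate 2 and 1 in TDG KO replicate 1 and WT replicate 2. Mov10l1 had 1 region, 61572 bp past its start, in both TDG KO lists and WT replicate 2. Piwil2 had 1 inside the gene and Tdrd1 had 2 upstream, all in all 4 lists. Tdrkh had 2 in all 4 lists and 1 in TDG KO replicate 1 alone, all past its RefSeq end. Ddx4, the gene that fell furthest, had only a region at -19632 bp from its start, in TDG KO replicate 2 alone. Regions in all 4 lists were thus found at genes that rose (Tdrkh, Tex19.1, Brdt), at Piwil2 and at Tdrd1.

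**Figure D5:**
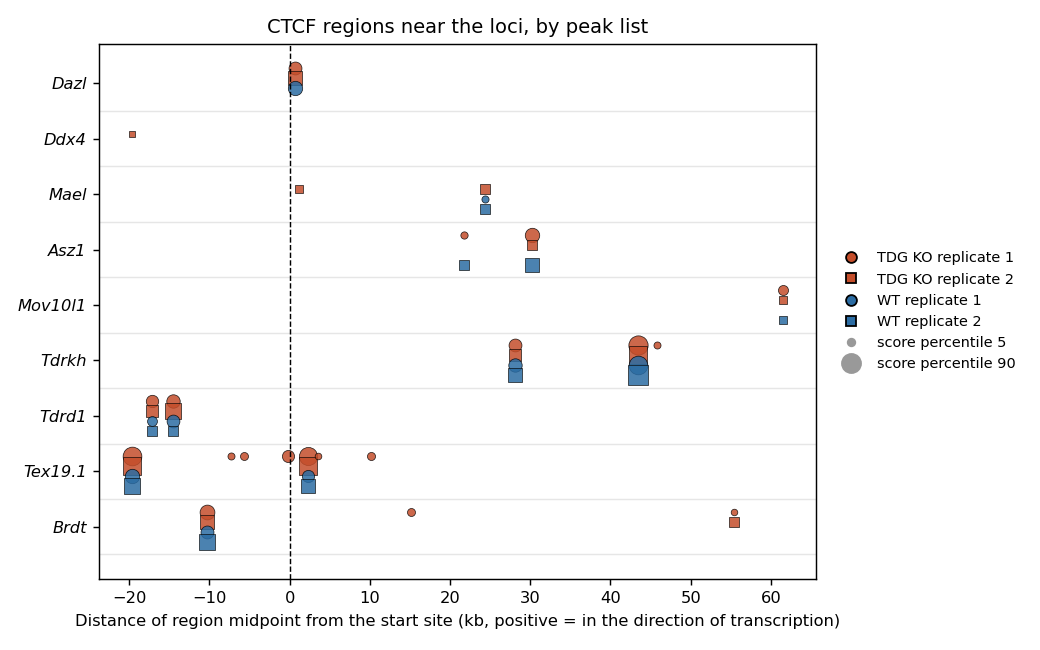
CTCF regions within 20 kb of the loci of 9 germ cell and piRNA genes, by distance from the start site along the gene (kb) and by list, TDG KO lists above WT lists; larger points have a higher score percentile within their list. Tex19.1 has 5 regions in TDG KO replicate 1 alone, and Dazl has a region 625 bp past its start in 3 lists.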

How the data were processed

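RNA values are FPKM that the authors deposited per library, per the file headers; their depth is unknown, and 20537 to 21776 genes per library lay above 0. Bowtie2 2.2.9, TopHat2 2.1.1, Cufflinks 2.2.1, Cuffdiff, MACS2 2.2.1, deepTools and the mm10 build are named, without roles, in the submitters' processing notes. The comparison table deposited by the authors gives log2 folds with p-values and q-values. The log2 fold there is WT over TDG KO, so its sign was turned here (16170 of 16171 genes checked). CTCF peak lists are one per library, with the authors' deposited score, whose meaning, threshold and control library the sources used here do not give; it was used only as a percentile within its list. RNA polymerase II, IgG and input libraries were not analysed here.

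Expression was tested with limma 3.58.1 (R 4.3.3, trend option) on log2(FPKM + 1) for genes averaging 1 FPKM or more, 2-sided, with Benjamini-Hochberg adjustment. Peaks of the 4 CTCF lists were merged at an overlap of at least 1 bp, and counts of peaks carry no test. Both procedures were tested on simulated data. Loci are mm10, 1-based, converted from the 0-based starts of the files. Positions of start sites, promoter windows and neighbours come from RefSeq (GRCm38.p6). Exon and intron positions were not used. The sources used here do not give the strand use in counting, so overlapping genes and near copies are uncertain. Genes were named by rule: the 10 genes, Tdg, up to 4 called genes of each list by size of change, the nearest tested neighbours and the 5 genes most like Dazl. Further genes of the lists, mainly those that went the other way, were named after their values were seen. The 10 genes and the lists were chosen with earlier results of these data known. Alternatives were another pseudocount, other filters, other scalings, limma without trend, a replicate block, leaving out each library, other distances and overlaps, and the strongest peaks of each list.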

Additional observations from a re-analysis of the deposited data

How the results depend on the processing

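Over the alternatives run, the 9 tested genes kept direction and side of the threshold in 105 values, and 1 call was lost, Mov10l1 in the authors' deposited table. Asz1 and Brdt have no value at a mean of at least 5 FPKM, which gave 4 higher and 2 lower genes in place of 6 and 2. Leaving out 1 library at a time kept 6 higher and 2 lower; Mov10l1 had limma adjusted p between 0.0251 and 0.0449. Upper-quartile scaling put the median change of all genes at 0.07, against -0.04, and gave 3855 higher and 2214 lower genes, against 2942 and 3554 as reported; the authors' deposited table has 1961 lower. Same-numbered libraries showed no shared deviation across genes (correlation -0.0157), and whether they were prepared as pairs is not in the labels. The fit with a replicate block gave 3030 higher and 3666 lower genes, with 6 and 2 of the 10. Among germ cell specification genes none fell under upper-quartile scaling (0) or with any library left out (0), and 3 to 5 rose with 1 left out. With no filter 1 spermatid and 2 oocyte genes rose and 4 fibroblast markers fell. With 1 library left out, 0 or 1 stem cell markers rose, 1 or 2 fibroblast markers rose and 3 to 17 fell. Within 5 kb the mean CTCF peaks were 10 in TDG KO and 6 in WT lists, with 3 shared regions; within 50 kb they were 38.5 and 26, with 22 shared and 4 TDG KO-only regions. With the 37099 strongest peaks of each list the TDG KO mean was 9 and the WT mean 11, with 0 TDG KO-only and 1 WT-only region. The excess of peaks near these genes thus ended under that choice. The choice takes more peaks from the longer TDG KO lists, so a loss was in part built in. With 1 list left out, and the classes resting on the remaining lists, there were 2 to 8 TDG KO-only and 0 or 1 WT-only regions. RefSeq gene ends, an alternative chosen after seeing the data, gave means of 16 and 10. For other changes the cause was not tested. Having 2 libraries per genotype and unknown depth limits all of these values.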
